A study of Mus musculus with 2 samples.

Results

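The Rab GTPase and TBC domain genes were taken by symbol from the protein-coding genes of the RefSeq GRCm38.p6 table (Rab followed by a number, with or without a letter, and Tbc1d followed by a number). The rule found 59 Rab genes and 30 TBC1D genes, 89 of 21523 protein-coding genes placed on the 19 autosomes and X. Their positions were set against the 3153 chromatin immunoprecipitation sequencing (ChIP-seq) peaks of hepatic leukemia factor (HLF), one of the PAR bZIP transcription factors. The series holds 2 libraries, both of Lin-Sca-1+c-Kit+ cells from C57BL/6 mice of 8 to 10 weeks, with the tissue given as blood. These surface markers enrich for haematopoietic stem and progenitor cells. One library came from cells infected with a MigR1 retrovirus coding for 3xFLAG-tagged HLF (transgene MigR1 3xFLAG-HLF/HLF), the other from cells with the MigR1 empty vector. Both were precipitated with an anti-FLAG antibody after 5 days of culture with SCF, IL-7, Flt3L and IL-3. The protein was therefore supplied by a retrovirus in cultured cells, and endogenous HLF was not measured. Only the FLAG-HLF peak list (n = 1, no replicate) was used, and the control library was not analysed here. Because the list gives positions only, the height and depth of a peak are unknown and the labelled cell type could not be checked against its marker genes.

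Rab proteins are small GTPases that mark membrane compartments and, in their GTP-bound form, recruit the effectors that move, tether and fuse vesicles. Exchange factors load them with GTP, and many, but not all, proteins with a TBC domain act as their GTPase-activating proteins and switch them off. In blood cells, Rab proteins serve the release of granules and lytic lysosomes, the uptake of receptors and the maturation of phagosomes.

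Near a peak means here that the centre of at least 1 peak fell between the ends of a gene or no more than 20 kb beyond them. By this rule 22 of the 89 genes (24.7%, exact Clopper-Pearson 95% interval 16.2 to 35.0%) lay near a peak, against 15.3% of all protein-coding genes. The 22 comprised 13 of 59 Rab genes (22.0%, 12.3 to 34.7%) and 9 of 30 TBC1D genes (30.0%, 14.7 to 49.4%). The Rab genes were Rab2a, Rab3c, Rab3d, Rab5c, Rab8a, Rab10, Rab21, Rab27a, Rab27b, Rab30, Rab34, Rab40c and Rab42. The TBC1D genes were Tbc1d1, Tbc1d2, Tbc1d2b, Tbc1d4, Tbc1d8, Tbc1d10b, Tbc1d17, Tbc1d22a and Tbc1d23. All intervals cover counting error over genes only, and no test was made of these shares.

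Peaks at gene starts were found in both families. Rab10, Tbc1d23, Rab27a, Rab30, Rab40c and Tbc1d10b had a peak centred within 1 kb of a gene end, 6 of 89 genes (6.74%, 2.51 to 14.1%) against 1.76% of all protein-coding genes. Other genes of like length would give 1.70 such genes, a ratio of 3.53 (1.32 to 7.38). A start site and strand were listed for 71 of the 89 genes. Among these, 5 had a peak centre within 1 kb of a listed start, where 1.74% of all genes with a listed start did. The same 5 were within 1 kb of the 5′ boundary (1.49% of all genes of known strand) and 0 of 71 were within 1 kb of the 3′ boundary (0.307%). No start was listed for Rab30.

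Rab10, a GTPase of exocytosis and of the insulin-regulated movement of glucose transporters, lies at chr12:3247428-3309969 on the minus strand. Its only peak, chr12:3309642-3310041, was centred 128 bp downstream of the listed start, and no other protein-coding gene was in reach. Tbc1d23, which links golgins of the trans-Golgi network to vesicles arriving from endosomes, lies at chr16:57168862-57231528 on the minus strand. Its only peak, chr16:57231277-57231676, was centred 10 bp upstream of one listed start and also reached no other protein-coding gene. These are the only 2 of the 90 promoter windows of member genes under a member's peak. They are shown because they are where the deposited intervals and a member's start coincide. Each window runs from 250 bases before the start to 50 after it (RefSeq, GRCm38.p6, gene strand), and capitals mark the bases inside the peak interval, 122 for Rab10 and 260 for Tbc1d23.
Rab10 (chr12:3309920-3310219, minus strand): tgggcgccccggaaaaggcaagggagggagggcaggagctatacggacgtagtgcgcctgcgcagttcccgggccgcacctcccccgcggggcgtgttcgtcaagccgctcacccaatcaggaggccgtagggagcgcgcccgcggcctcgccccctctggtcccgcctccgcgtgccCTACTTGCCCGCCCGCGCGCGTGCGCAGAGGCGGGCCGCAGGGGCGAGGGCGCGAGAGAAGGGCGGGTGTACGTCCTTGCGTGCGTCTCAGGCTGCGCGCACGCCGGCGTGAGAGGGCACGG
Tbc1d23 (chr16:57231417-57231716, minus strand): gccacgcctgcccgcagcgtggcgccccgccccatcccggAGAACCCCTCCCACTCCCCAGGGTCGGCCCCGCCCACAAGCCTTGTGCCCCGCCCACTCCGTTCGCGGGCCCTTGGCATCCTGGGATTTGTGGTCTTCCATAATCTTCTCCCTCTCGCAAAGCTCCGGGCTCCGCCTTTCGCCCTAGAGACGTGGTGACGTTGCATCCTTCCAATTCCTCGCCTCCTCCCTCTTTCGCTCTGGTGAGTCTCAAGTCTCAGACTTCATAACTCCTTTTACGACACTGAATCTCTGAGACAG

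Both windows are rich in G and C, with a GC content of 74.7% and 43 CpG dinucleotides for Rab10 and 62.0% and 21 for Tbc1d23. The median over the 90 windows of member genes was 61.5% and 21.0 CpG, and over 21045 windows of protein-coding genes 56.7% and 13. Neither window held the PAR bZIP palindrome TTACGTAA, the same motif with any base at position 4 (TTANGTAA, TTACNTAA on the other strand), the C/EBP palindrome TTGCGCAA or the AP-1 motif TGANTCA, each searched on both strands. The bases of both peaks outside the windows were not read. TTACGTAA is a special case of TTANGTAA. TTACGTAA occurred in 0.119% of all 32851 windows and TTANGTAA in 2.32%. Unlike the 21045 windows above, the 32851 include those of noncoding genes. TTGCGCAA occurred in 0.183% of all windows and TGANTCA in 7.81%. Of the 227 windows that any peak of the list overlapped by at least 1 bp, 8.81% held TTANGTAA, 2.64% held TTGCGCAA and 0.441% (1 window) held TTACGTAA. TGANTCA was in 6.17% of these windows, below its share of all windows. Among the 90 member windows, 1 held TTANGTAA, that of Rab29, whose nearest peak lay 138 kb from the gene. TGANTCA was found in the windows of Rab15, Rab34, Rab39b and Tbc1d14, and the palindromes TTACGTAA and TTGCGCAA in 0 of the 90.

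At the other starts the peak lay just upstream of the promoter window. Rab27a, the GTPase that docks lytic granules, secretory lysosomes and melanosomes at the plasma membrane, lies at chr9:73044810-73097623 on the plus strand and had 2 peaks. The first, chr9:73044138-73044537, was centred 473 bp upstream of the first listed start and was also in reach of Pigb and Pigbos1. The second, chr9:73070897-73071296, lay inside the gene at 26.3 kb from the nearer end and 6.95 kb downstream of a second listed start. Rab40c, whose product carries a SOCS box of ubiquitin ligase complexes, lies at chr17:25882114-25919714 on the minus strand. Its peak, chr17:25920063-25920462, was centred 548 bp upstream of the start and also reached Pigq. A further peak lay 20.6 kb beyond its other end, just outside the window, and 0.0380 kb from a boundary of Wdr90.

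Rab30, a Golgi GTPase, lies at chr7:92741637-92844535 and had 1 peak, chr7:92741024-92741423, centred 414 bp outside the gene. That centre was inside the noncoding gene 4632427E13Rik, and the interval covered 14 bases of its promoter window. No other protein-coding gene was in reach. Tbc1d10b, of the EPI64 family of Rab GTPase-activating proteins, lies at chr7:127197459-127208468 on the minus strand. Its peak, chr7:127209073-127209472, was centred 804 bp upstream of the start. This peak was inside Mylpf, 424 bp from a Mylpf boundary, and also reached Cd2bp2 and Septin1. For 5 of the 6 genes the member's own end was the nearest protein-coding boundary, and Tbc1d10b was the exception. The 1 kb rule that picked these genes favours this outcome, and no share is given for other genes that meet it.

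**Figure D1:**
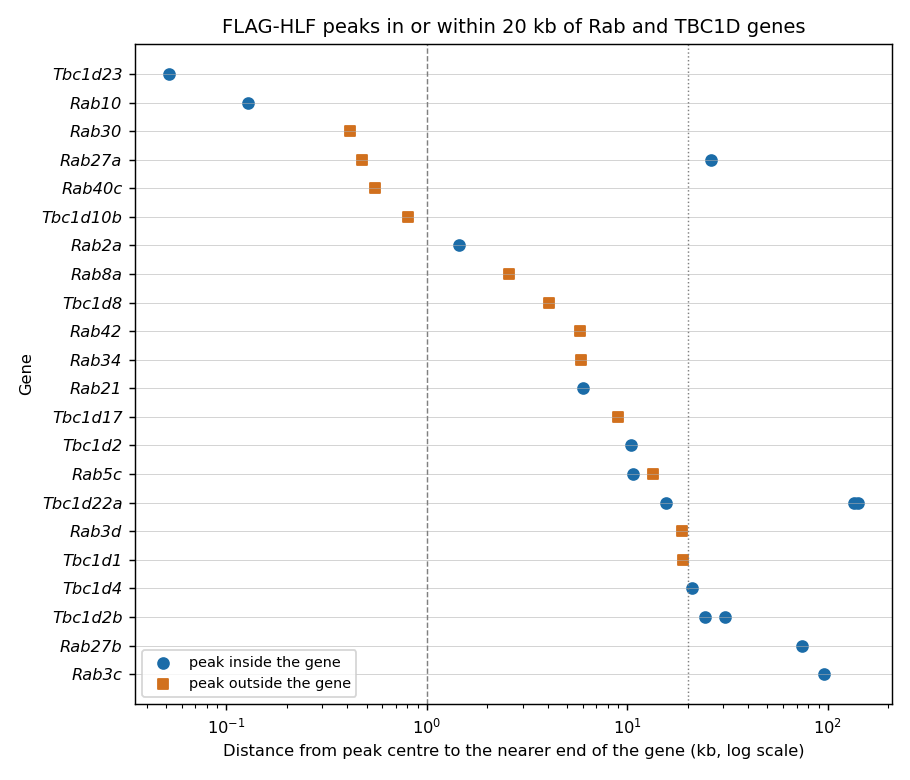
Each point is 1 of the 27 FLAG-HLF peaks in or within 20 kb of a Rab or TBC1D gene (rows), placed by the distance of its centre to the nearer end of the gene on a log scale in kb; circles are inside the gene and squares outside, and the lines stand at 1 and 20 kb. Peaks of 6 genes lie left of 1 kb, and those of Rab3c, Rab27b and Tbc1d22a lie farthest inside.

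Along the whole set, 27 distinct peaks lay in or within 20 kb of the 22 genes, and no peak was in reach of 2 members. There were 18 genes with 1 peak, 3 with 2 (Rab27a, Rab5c and Tbc1d2b) and 1 with 3 (Tbc1d22a). Thus 4 of 89 had 2 or more, against 2.72% of all protein-coding genes, a share not matched for length. In the order named, these genes were 52.8, 23.2, 68.7 and 284 kb long, where the median of all protein-coding genes was 17.4 kb. Of the 27 peaks, 15 lay inside the member and 12 outside, and no share over all peaks is given beside this split. Of the 15 inside, 2 were within 1 kb of an end, 5 were at 1 to 20 kb and 8, in 6 genes, were over 20 kb from either end. The depth inside ranged from 52 bp in Tbc1d23 to 142 kb in Tbc1d22a.

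Tbc1d22a and Tbc1d2b had 2 deep peaks each. Tbc1d22a spans 284 kb at chr15:86214411-86498503. One of its peaks, chr15:86229784-86230183, lay 15.6 kb inside, or 5.48% of the way from the 5′ end. The other 2, chr15:86355806-86356205 and chr15:86363852-86364251, were 8.05 kb apart near the middle of the gene, at 49.8% and 52.7% of its length. Tbc1d2b, a paralogue of the Rab7 regulator Tbc1d2, lies at chr9:90202047-90270772 and had 2 peaks 13.7 kb apart, chr9:90226280-90226679 and chr9:90239949-90240348. They stood at 64.4% and 44.6% of its length from the 5′ end. For Tbc1d22a and Tbc1d2b no other protein-coding gene was in reach of these peaks. Exons and introns are not given by the gene table, so whether a peak inside a gene was exonic or intronic was not assigned.

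Rab27b, the paralogue of Rab27a that serves granule and exosome release, had 1 peak 74.5 kb from its nearer end in a gene of 163 kb. Rab3c, a GTPase of synaptic and other secretory vesicles, had 1 at 95.8 kb in a gene of 227 kb. Both of these peaks also lay inside a noncoding gene, Gm41770 for Rab27b and Gm41057 for Rab3c. Tbc1d4, also called AS160, a substrate of AKT whose targets include Rab10, had 1 peak 21.1 kb from its 3′ end, at 87.4% of its length. Its paralogue Tbc1d1 had 1 peak outside the gene, 18997 bp past the 3′ end and 140 kb from the nearest listed start, close to the limit of the window. Each of the 2 peaks reached no other protein-coding gene.

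Peaks at an intermediate depth lay in Rab2a, Rab21, Tbc1d2 and Rab5c. Rab2a, which acts between the endoplasmic reticulum and the Golgi, had its peak 1.45 kb inside the gene, and its strand was not listed. Rab21, an early endosomal GTPase that binds integrins, had its peak 4.15 kb downstream of the listed start, at 21.7% of its length. Tbc1d2 (Armus) had its peak at 77.3% of its length, with Coro2a also in reach. Rab5c, an early endosomal GTPase at chr11:100715003-100738215 on the minus strand, had 1 peak 10.6 kb inside (chr11:100725438-100725837) and 1 at 13.4 kb past its 3′ end (chr11:100701365-100701764). The outer Rab5c peak was inside Dhx58, 2.71 kb from a Dhx58 boundary, and a further one, 20.8 kb upstream of Rab5c and just outside the window, was inside Kcnh4.

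Several outer peaks lay closer to another gene than to the member. In all, 21 of the 27 peaks had the member's own boundary as the nearest protein-coding boundary, and 5 lay inside another protein-coding gene. No share over all peaks is given beside these counts, so they are a description only. No other protein-coding gene was in reach of 16 (59.3%). Over the whole list, 1607 of the 2554 peaks that reached any protein-coding gene reached only 1 (62.9%). The 5 genes for which another gene was nearer to every peak were Rab3d, Rab34, Rab42, Tbc1d10b and Tbc1d17. The Tbc1d17 peak, 8998 bp outside the gene, reached 6 other genes. The Rab34 peak, 5.88 kb past the 3′ end of a GTPase of lysosome positioning and cilia, was inside Proca1, 1 of the 4 other genes it reached. The Rab42 peak, 5.81 kb upstream of the gene, was inside the noncoding gene Snhg12 and lay 2.57 kb from Trnau1ap. By contrast the Rab8a peak, 2.57 kb past the 3′ end of this GTPase of Golgi-to-surface transport, and the Tbc1d8 peak, 4.07 kb upstream of the gene, were nearest to the member.

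The Rab3d peak shows such a case at sequence level. Rab3d, a GTPase of secretory granules, was 18.8 kb from its peak, chr9:21936750-21937149. The peak was inside Plppr2, and its centre lay 61 bp from the listed start of Plppr2, whose whole promoter window of 300 bases was inside the interval. It held 1 copy of TGANTCA and none of the other motifs named above. It is printed because it carries 3 copies of TTATGCAA, in capitals below. It is 1 form of TTANGCAA (TTGCNTAA on the other strand), which joins the first bases of TTANGTAA to the last of TTGCGCAA. TTANGCAA and the octamer below were chosen after this window was seen, so their presence here is a description. TTANGCAA was in 2.44% of all windows, in 14.1% of the 227 windows under a peak and in 2 of the 90 member windows, those of Rab40b and Rab43. The window also held 4 copies of the octamer ATGCAAAT, 3 of which overlap these, a motif found in 1.74% of all windows, in 3.52% of the 227 under a peak and in 0 of the 90 member windows.
Plppr2 (chr9:21936760-21937059, plus strand): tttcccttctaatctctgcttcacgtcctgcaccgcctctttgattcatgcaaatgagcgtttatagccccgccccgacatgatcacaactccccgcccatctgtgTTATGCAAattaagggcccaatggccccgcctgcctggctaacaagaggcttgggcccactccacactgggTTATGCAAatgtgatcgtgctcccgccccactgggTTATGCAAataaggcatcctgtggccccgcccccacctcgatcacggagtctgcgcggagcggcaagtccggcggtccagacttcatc

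The Rab genes were next placed by hand in a single group each, by an assigned compartment. A gene whose product serves several compartments is counted in only that group, and other placings were not tried. Of 13 Rab genes of regulated and constitutive secretion, 6 lay near a peak (46.2%, 19.2 to 74.9%): Rab3c, Rab3d, Rab8a, Rab10, Rab27a and Rab27b. Other genes of like length would give 2.52, a ratio of 2.38 (0.990 to 3.86). The list was chosen with earlier results of these data known. Rab3d counts only through the peak inside Plppr2, 18.8 kb from Rab3d. The 13 genes were long, with a median of 52.8 kb, and their median distance to a peak was 26.2 kb. Rab37, Rab3a and Rab3b were outside the window, with their nearest peaks at 26.2, 33.1 and 45.0 kb. Each of these peaks lay inside another protein-coding gene: Tmem104 for Rab37, Mast3 for Rab3a and Btf3l4 for Rab3b. Rab8b, Rab13, Rab26 and Rab44 were 106 to 706 kb from a peak.

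The other compartments had few genes near peaks. Early endosomal Rab genes had 2 of 10 (Rab5c and Rab21), where genes of like length would give 1.77. Rab4a, Rab4b, Rab5a, Rab5b, Rab14, Rab20, Rab22a and Rab31 were 62.8 to 1085 kb away. Late endosomal and lysosomal Rab genes had 1 of 10 (Rab34, against 1.29). Rab7, the central GTPase of late endosomes, was 23.7 kb from a peak whose nearest protein-coding boundary was that of Rpn1. Rab24 was 39.4 kb from a peak inside Lman2. The genes Rab7b, Rab9, Rab9b, Rab29, Rab32, Rab36 and Rab38 were 64.8 to 4093 kb away. Genes of the endoplasmic reticulum and Golgi had 2 of 14 (Rab2a and Rab30, against 2.09). The other 12, Rab1a, Rab1b, Rab2b, Rab6a, Rab6b, Rab18, Rab19, Rab33a, Rab33b, Rab39, Rab39b and Rab43, were 63.4 to 4791 kb away.

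Recycling Rab genes had 0 of 7 (upper limit of the exact interval 41.0%), where genes of like length would give 1.08. Rab11b, 20.2 kb from a peak inside Angptl4, was the closest, and Rab11a was 47.6 kb from the nearer of 2 peaks inside Megf11. Rab12, Rab15, Rab17, Rab25 and Rab35 were 51.2 to 1673 kb away. Of the remaining 5 Rab genes, Rab40c and Rab42 were near a peak and Rab23, Rab28 and Rab40b were 78.0 to 2023 kb away. The differences between these small groups were not tested.

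Of the 30 TBC1D genes, 2 had their nearest peak at 20 to 50 kb, Tbc1d20 at 29.6 kb, from a peak inside Trib3, and Tbc1d21 at 31.4 kb. The Tbc1d20 product acts on Rab1 at the endoplasmic reticulum. The other 19 were 56.6 to 5479 kb from a peak: Tbc1d5, Tbc1d7, Tbc1d8b, Tbc1d9, Tbc1d9b, Tbc1d10a, Tbc1d10c, Tbc1d12, Tbc1d13, Tbc1d14, Tbc1d15, Tbc1d16, Tbc1d19, Tbc1d22b, Tbc1d24, Tbc1d25, Tbc1d30, Tbc1d31 and Tbc1d32. They include the Rab7 regulators Tbc1d5 and Tbc1d15 and Tbc1d7, a subunit of the TSC complex. In total, 9 members had their nearest peak at 20 to 50 kb and 58 beyond 50 kb. The median distance to a peak, with a peak inside counted as 0, was 91.4 kb for the 89 genes and 179 kb for all protein-coding genes.

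Genes with the same symbol number were also compared. This does not group all paralogues, since Tbc1d1 and Tbc1d4 stay apart. The symbols form 19 families of 2 or more genes that share a number, with 42 genes in all. Of these families, 9 had no gene near a peak, 7 had 1 and 3 had 2. Together 13 of the 42 genes lay near a peak (31.0%), against 24.7% of all 89 members, 15.3% of all protein-coding genes and 7.06 genes by length. These 13 are part of the 22 genes above, and no interval or test was made of this share. No share was computed for families of other genes, so the number with 2 near has no background here. The 3 families were Rab27 (both genes), Tbc1d2 (both genes) and Rab3 (Rab3c and Rab3d of 4). In Rab27 a peak lay at the Rab27a start, while the only Rab27b peak was 74.5 kb from the nearer gene end. No start was listed for Rab27b, so the distance of that peak to a start is unknown.

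Members were longer than most genes, with a median length of 26.8 kb against 17.4 kb for all protein-coding genes. The median was 23.2 kb for Rab and 60.5 kb for TBC1D genes, and 57.7 kb for members near a peak against 25.2 kb for the rest. Long genes meet more peaks, so members were set against other protein-coding genes in 20 length classes (5 on X). On this base 15.6 members near a peak would be given by length alone, a ratio of 1.41 (0.923 to 2.0). The ratio was 1.36 (0.757 to 2.14) for Rab and 1.49 (0.731 to 2.45) for TBC1D genes, and each of the 3 intervals includes 1. All genes were also divided by length into 4 groups of equal size, with limits at 5.88, 17.4 and 45.1 kb. From the shortest group to the longest, 33.3% of 6, 17.6% of 17, 12.1% of 33 and 39.4% of 33 members were near a peak. Other genes gave 7.61, 13.6, 16.2 and 23.7%. In the group from 17.4 to 45.1 kb the members' share was below that of other genes, whose share was inside the members' interval of 3.40 to 28.2%. The other genes' share was also inside the members' interval in the remaining groups, which was 22.9 to 57.9% in the longest and 4.33 to 77.7% in the shortest.

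**Figure D2:**
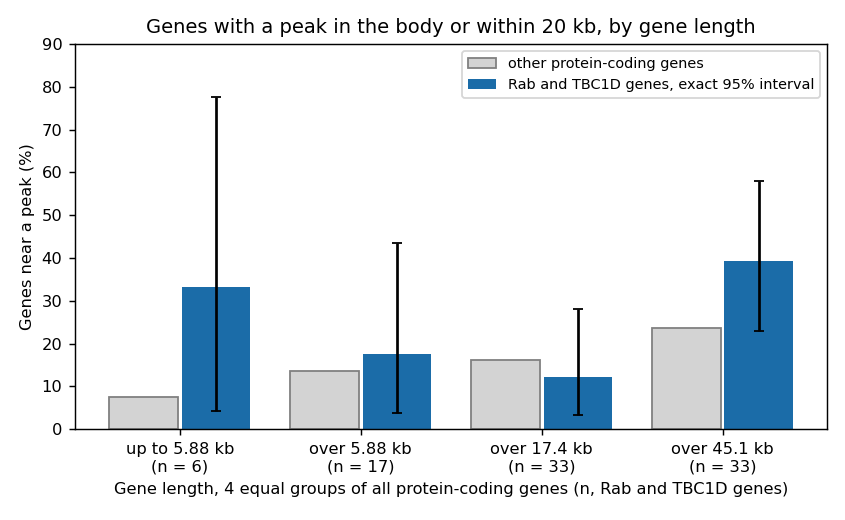
Share of genes near a peak by the 20 kb rule (y axis, %) in 4 equal groups of gene length (x axis, kb), for other protein-coding genes (grey) and for Rab and TBC1D genes (blue, with exact 95% intervals). Members stand at 39.4% and other genes at 23.7% in the longest group, and at 12.1% and 16.2% in the group before it. In each of the 4 groups the other genes' share is inside the members' interval.

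The count of members depended on the region searched. A peak centre in the body itself was found for 12 members (13.5%, background 6.94%), within 5 kb for 17 (19.1%, 9.58%) and within 10 kb for 20 (22.5%, 11.6%). Within 50 kb it was found for 31 (34.8%, 24.6%). Set against length classes, the ratios were 1.52 (0.809 to 2.52) for the body, 1.64 (0.993 to 2.48) for 5 kb, 1.65 (1.05 to 2.38) for 10 kb and 1.29 (0.926 to 1.69) for 50 kb. With every peak assigned to a single gene, that of the closest boundary up to 100 kb away, there were 18 members (20.2%, background 11.0%), of which Tbc1d21 was not among the 22. With any overlap of the interval in place of its centre 22 members were counted (background 15.4%), and also with peaks under 25 kb apart merged to 2790 positions (15.1%). All 22 were autosomal, 22 of 83 against 15.9% of autosomal genes. None of the 6 members on X, Rab9, Rab9b, Rab33a, Rab39b, Tbc1d8b and Tbc1d25, lay near a peak, where 2.28% of genes on X did. Their nearest peaks were 632 to 5479 kb away.

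**Figure D3:**
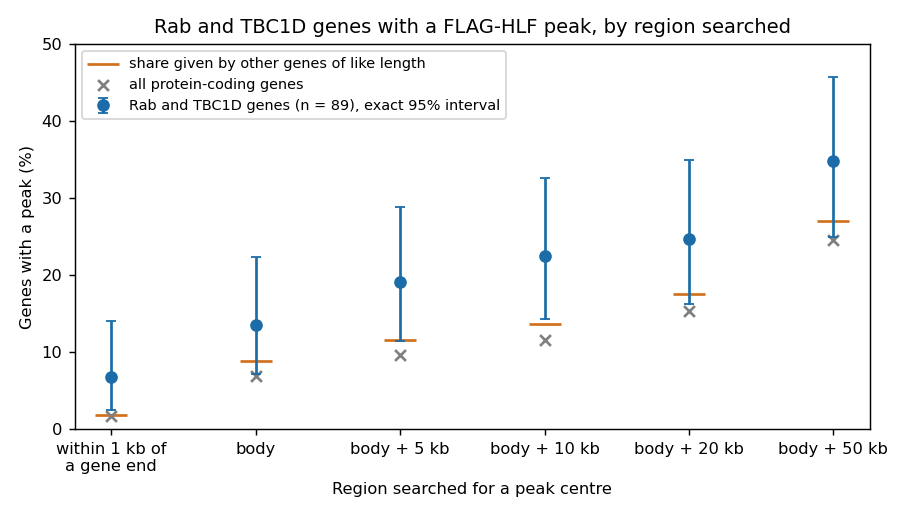
Share of the 89 Rab and TBC1D genes with a peak centre (y axis, %; circles with exact 95% intervals) in 6 regions (x axis), beside the share given by other genes of like length (dashes) and that of all protein-coding genes (crosses). The members' share lies above both in each region, from 6.74% at gene ends to 34.8% within 50 kb, and the length-based share lies below the interval at gene ends and for 10 kb and inside it elsewhere.

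The other genes of the Rab cycle were counted by the same 20 kb rule. Genes of other TBC domain proteins had 4 of 10 near a peak (Rabgap1l, Sgsm1, Sgsm2 and Grtp1), where genes of like length would give 2.31. Rab exchange factors had 12 of 37 (32.4%, 18.0 to 49.8%), against 7.57, a ratio of 1.59 (0.881 to 2.43). Hps4, a subunit of the exchange factor for the Rab32 and Rab38 of lysosome-related organelles, had 3 peaks, the nearest to an end 381 bp inside the gene. Rin3, an exchange factor of Rab5 proteins, also had 3, the nearest 513 bp outside. Madd, which activates Rab3 and Rab27 proteins, had 2, the nearest to an end 1.46 kb inside. Others near a peak included Dennd1b, Dennd2a, Dennd2d, Dennd5a, Dennd6a, Rab3il1, Rab3ip and Trappc9. The Dennd6a peak, 9.06 kb outside the gene, lay inside Arf4 and is also counted for the other small GTPase genes below. Other genes in reach are not given for the peaks of these lists.

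Rab effectors had 8 of 44 genes near a peak (18.2%, 8.19 to 32.7%), against 8.72 by length. They included Unc13d (Munc13-4), which primes granules for release together with Rab27a, with 1 peak 6.69 kb inside. The Rab27 effectors Sytl1 and Sytl3 had 1 each outside the gene, at 15.1 and 8.91 kb, and Rph3a had 1 at 481 bp inside an end. The genes of prenylation, GDI and the Rab3 GTPase-activating complex had 1 of 9, Rabggta, with a peak 2.21 kb outside. Other small GTPase genes (ARF, ARL, RAC, RAS, RAP and like families, with 3 genes of ARL-binding proteins that share the symbol) had 11 of 63 (17.5%, 9.05 to 29.1%), against 9.50 by length. No difference between these lists and the Rab and TBC1D genes was tested.

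**Figure D4:**
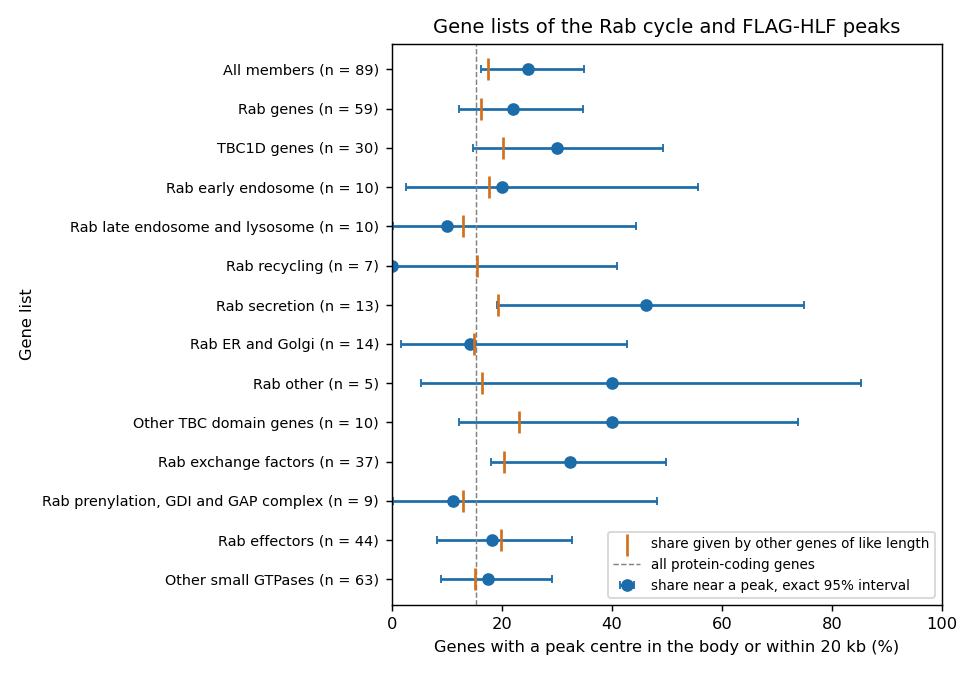
Share of genes near a peak (x axis, %; circles with exact 95% intervals) for the Rab and TBC1D genes together (labelled All members), for each Rab group and for the other lists of the Rab cycle (y axis, with the number of genes), beside the share given by other genes of like length (bars). The dashed line is the 15.3% of all protein-coding genes. Secretion Rab genes stand at 46.2% and recycling Rab genes at 0%, and the intervals of the small groups are wide. The lists were chosen with earlier results of these data known.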

How the data were processed

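Peaks of the FLAG-HLF library were deposited as a table of 3 columns without a header: chromosome, start and end on mm10, all 3153 intervals 400 bp wide. It carries no score, read count or other measured unit, and depth is unknown. Bowtie2 2.0.6 and MACS2 2.0.10 are named in the submitters' processing notes without a role; peak threshold, use of the control and the source of the common width: not given in the sources used here. The position of a peak was its start plus 200. Genes came from RefSeq GRCm38.p6, whose coordinates match mm10. Rows that start below 3 Mb were left out. Strand and starts came from the RefSeq promoter table (71 members matched, 18 did not). Ratios divide the members near a peak by the sum of the shares near a peak among other genes of the same length class. Their intervals are exact Clopper-Pearson intervals of the share, divided by that sum. With 1 library there is no replicate and no test was made. The counting and the ratio were tested on simulated data. Of 154 list symbols, 1 matched through an older name. The members and lists were chosen with earlier results of these data known. Genes named are all members near a peak, in full those with 2 or more peaks or one within 1 kb of an end, and those at 20 to 50 kb; members beyond 50 kb are also listed by name, with ranges only; Rab27b, Rab3c and list examples were described further after their values were seen. Python 3.11.15, numpy 2.4.6, pandas 2.3.3, scipy 1.17.1 and matplotlib 3.10.9 were used.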

Additional observations from a re-analysis of the deposited data

How the results depend on the processing

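Of the 31 alternatives, 21 stayed within 1.5 times the reported count, or within the interval of the reported ratio. This tally does not measure robustness. Keeping autosomes alone could not change the count, because 0 of the 6 members on X lay near a peak. The 4 motif alternatives count other motifs, not the same result processed otherwise. The count of members near a peak went from 22 to 12 in the gene body alone and to 6 within 1 kb of a gene end, and stayed between 17 and 31 under the 8 others. Rab genes went from 13 to 7 in the body and to 20 within 50 kb, and TBC1D genes from 9 to 5 in the body. A smaller or larger region searched is the cause by construction. The ratio to genes of like length went from 1.41 to 3.53 within 1 kb of a gene end, and the cause was not tested. Under the 8 others it was 1.29 to 1.65. The intervals for the body, 5 kb, 50 kb, nearest boundary and merged peaks include 1, and that for 10 kb (1.05 to 2.38) does not. The regions overlap and use the same peaks. Of the 90 member promoter windows, 1 held TTANGTAA, 0 held TTACGTAA, 0 held TTGCGCAA, 4 held TGANTCA and 2 held TTANGCAA, the last chosen after the data were seen. A stricter peak threshold was not run, because the list has no score. No paired analysis was possible because there is a single library, which also leaves no replicate to omit. Depth is unknown, so a gene without a peak is not shown to be unbound.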
